A study of Mus musculus with 12 samples.

Results

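RNA was sequenced from mouse tumours that the labels describe as oral. The genes described are 9 components of the transforming growth factor beta (TGF-beta) and activin axis. They are the ligands Tgfb1, Tgfb2 and Tgfb3, the activin A subunit Inhba, and the receptors Tgfbr1 and Tgfbr2. The others are the activin antagonist Fst (follistatin), the storage protein Ltbp1 and the inhibitory Smad gene Smad7. The 9 genes were taken by symbol from 55401 genes, and all were found. All 9 passed the expression filter that left 15813 genes for testing (at least 1 FPKM in at least 3 of 12 libraries). The most distinct of them was Inhba, which was 1.11 to 2.57 FPKM in the tumours labelled as treated with control IgG or an anti-CSF1R antibody and 12.79 to 24.40 FPKM in those labelled as treated with IL-10-Fc or BF10. FPKM is the number of fragments scaled by transcript length and sequencing depth, so levels of different genes can be set side by side. TGF-beta is secreted in a latent form that latent TGF-beta binding proteins such as Ltbp1 tether to the matrix, and once activated it binds Tgfbr2, which recruits and phosphorylates Tgfbr1. Activins are dimers of inhibin beta subunits that signal through their own receptors to the same Smad2 and Smad3 proteins, and follistatin binds and neutralises them. Smad7 is induced by the pathway and inhibits its receptors, and in tumours the axis is known for fibroblast activation, matrix production and restraint of T cells.

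Per the labels, MTC-Q1 mouse oral cancer cells were injected orthotopically into C57BL/6 mice, and dosing began at a tumour size of 100 mm3, on a twice-weekly schedule. The 4 groups, of 3 libraries each, received an isotype IgG1-Fc control (Ctrl-IgG), an antibody against CSF1R, a receptor on which macrophages depend (aCSF1R), recombinant interleukin-10 joined to an Fc (IL-10-Fc), or both in 1 molecule, interleukin-10 fused to the anti-CSF1R antibody (BF10). The number of doses is given as 6 in one label and as 4 in another, and the labels give neither age nor sex. The comparisons ask what the fusion protein does to these transcripts and how its parts act when given singly. Each library is bulk tumour tissue, in which fewer cells of a type and less RNA per cell cannot be told apart. Nothing in the labels says that the 3 libraries of a group came from separate animals, so p-values measure the spread between these libraries.

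The libraries did not behave as 1 kind of tumour, although the labels give the same cells and the C57BL/6 strain for all of them. Xist did not exceed 0.04 FPKM in any of 6 libraries, those of Ctrl-IgG and aCSF1R, and was 17.09 to 30.68 FPKM in the 6 of IL-10-Fc and BF10, and H2-Ea, an MHC class II gene that C57BL/6 mice do not transcribe, was at most 0.27 FPKM in the former and at least 552.78 FPKM in the latter. The Y-linked Eif2s3y was 4.23 to 11.33 FPKM in the former and at most 0.05 FPKM in the latter apart from BF10 replicate 3, which had 3.29 FPKM. The simple epithelial markers Krt8, Krt18, Krt19, Epcam and Cdh1 had a summed level of 0.86 to 8.86 FPKM in the former and 510.9 to 1347 FPKM in the latter, and the 8 fibroblast markers one of 196.8 to 662.7 against 1068 to 2491 FPKM. Of these fibroblast markers, Col1a1, Col1a2, Col3a1 and Lum separated the sets, and Dcn, Pdgfrb and Thy1 overlapped. Pdgfra went the other way, with means of 15.94 in Ctrl-IgG and 21.68 in aCSF1R against 9.99 in IL-10-Fc and 11.23 FPKM in BF10. Any difference between these sets of groups therefore cannot be told apart from a difference in the animals, the tumour cells or the fibroblast content, whereas aCSF1R with Ctrl-IgG and BF10 with IL-10-Fc can be compared within a set. The 7 squamous keratinocyte markers summed to 1351 to 1884 FPKM in Ctrl-IgG replicate 3 and aCSF1R replicates 1 and 2, together with 560.8 to 945.2 FPKM of 6 skeletal muscle markers, and to 2.37 to 36.69 FPKM in the other 9 libraries. BF10 replicate 1, Ctrl-IgG replicate 2 and replicates 1 and 2 of IL-10-Fc had FPKM sums of 819001 to 976950 and mitochondrial shares of 6.57% to 9.04%, and no other library exceeded 701275 or 3.61%.

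On the GRCm38 build (GENCODE M21 annotation) all 9 genes are annotated as protein-coding. Inhba (ENSMUSG00000041324) occupies chromosome 13 from 16011851 to 16031621 on the plus strand, and Fst (ENSMUSG00000021765) lies on the same chromosome from 114452290 to 114458951 on the minus strand. Tgfbr1 (ENSMUSG00000007613) spans chromosome 4 from 47353222 to 47414931, Tgfbr2 (ENSMUSG00000032440) chromosome 9 from 116084293 to 116175360 and Ltbp1 (ENSMUSG00000001870) chromosome 17 from 75005568 to 75392512. Tgfb1 (ENSMUSG00000002603) spans chromosome 7 from 25687002 to 25705077, Tgfb2 (ENSMUSG00000039239) chromosome 1 from 186622792 to 186705989 and Tgfb3 (ENSMUSG00000021253) chromosome 12 from 86056745 to 86079041.

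The RefSeq promoter table (GRCm38.p6) held 6 of the 9 genes, without Tgfb3, Fst and Smad7. The 250 bases before the start site are shown for the 4 of these 6 genes that were higher in IL-10-Fc or BF10 in the tests described next, using the upstream start where the table has more than 1. Both strands were searched for CAGAC, the core letters of a Smad binding element, and for the AP-1 motif TGAGTCA, and the matches are in capitals.
Inhba, chr13:16011601-16011850, plus strand: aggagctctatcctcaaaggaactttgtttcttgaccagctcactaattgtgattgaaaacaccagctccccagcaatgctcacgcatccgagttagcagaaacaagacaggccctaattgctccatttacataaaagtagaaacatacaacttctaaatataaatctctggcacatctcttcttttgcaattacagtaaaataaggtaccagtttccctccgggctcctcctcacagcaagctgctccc
Tgfbr1, chr4:47352972-47353221, plus strand: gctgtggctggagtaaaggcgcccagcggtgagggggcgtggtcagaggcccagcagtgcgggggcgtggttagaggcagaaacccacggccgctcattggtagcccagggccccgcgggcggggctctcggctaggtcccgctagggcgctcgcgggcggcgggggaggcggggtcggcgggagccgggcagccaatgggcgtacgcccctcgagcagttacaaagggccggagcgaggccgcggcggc
Tgfbr2, chr9:116175364-116175613, minus strand: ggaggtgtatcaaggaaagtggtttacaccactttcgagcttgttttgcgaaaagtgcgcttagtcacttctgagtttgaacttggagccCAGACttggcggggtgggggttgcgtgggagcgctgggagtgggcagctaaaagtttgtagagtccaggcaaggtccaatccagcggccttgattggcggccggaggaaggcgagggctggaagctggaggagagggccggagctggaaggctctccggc
Ltbp1, chr17:75005279-75005528, plus strand: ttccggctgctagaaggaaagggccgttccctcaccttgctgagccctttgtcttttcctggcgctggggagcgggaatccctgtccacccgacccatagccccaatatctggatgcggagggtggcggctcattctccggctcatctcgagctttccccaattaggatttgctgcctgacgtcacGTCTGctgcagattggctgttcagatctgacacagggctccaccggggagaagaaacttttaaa
The Tgfbr2 window held 1 copy of CAGAC and the Ltbp1 window 1 copy on the other strand, read as GTCTG, while the Inhba and Tgfbr1 windows held neither motif. Of all 32851 windows of this length, 42.2% held CAGAC on either strand and 4.46% held TGAGTCA, so a match to the first is common. The windows also differed in base composition, with 43.2% G and C in Inhba, 56.8% in Ltbp1, 58.4% in Tgfbr2 and 74.8% in Tgfbr1.

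Across the 4 comparisons between the sets, 5 or 6 of the 9 genes were higher in IL-10-Fc or BF10 and none was lower. A gene was called in limma at an adjusted p under 0.05 over all 15813 genes and a fold change of at least 1.5 on the log2(FPKM + 1) scale. In IL-10-Fc against Ctrl-IgG, Tgfbr1, Inhba, Fst, Smad7 and Ltbp1 were called higher, 5 of 9, where 10.1% of all tested genes were called higher and 23.6% lower. In BF10 against Ctrl-IgG the same 5 genes and Tgfbr2 were called higher, 6 of 9, where 11.8% of all genes were called higher and 13.2% lower. The 5 genes were also called higher in BF10 against aCSF1R, where 11.0% of all genes were called higher and 14.0% lower, and in IL-10-Fc against aCSF1R, where 11.0% were called higher and 31.2% lower. The median log2 difference of the 9 genes was 0.86, 1.10, 0.92 and 0.88 in these 4 comparisons in the order given, and that of all tested genes was -0.39, -0.12, -0.21 and -0.51. Comparisons that share a group share its libraries, so the 4 counts are not separate observations.

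The counts moved with the libraries entered. Without Ctrl-IgG replicate 3 and aCSF1R replicates 1 and 2, the 3 libraries with keratinocyte and muscle transcripts, 4 genes were called in IL-10-Fc against Ctrl-IgG, 3 in BF10 against Ctrl-IgG, and 1, Inhba, in each comparison with the single aCSF1R library left. The number of all tested genes called in these comparisons also fell, for example from 3955 to 621 in BF10 against aCSF1R. The fit without the 4 libraries of high FPKM sum left IL-10-Fc replicate 3 alone in its group, and its counts are not given. Leaving out aCSF1R replicate 1 reduced the count in BF10 against aCSF1R from 5 to 3. Without any other aCSF1R or BF10 library that count was 4. Leaving out any 1 aCSF1R library reduced the count in IL-10-Fc against aCSF1R from 5 to 3.

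**Figure D1:**
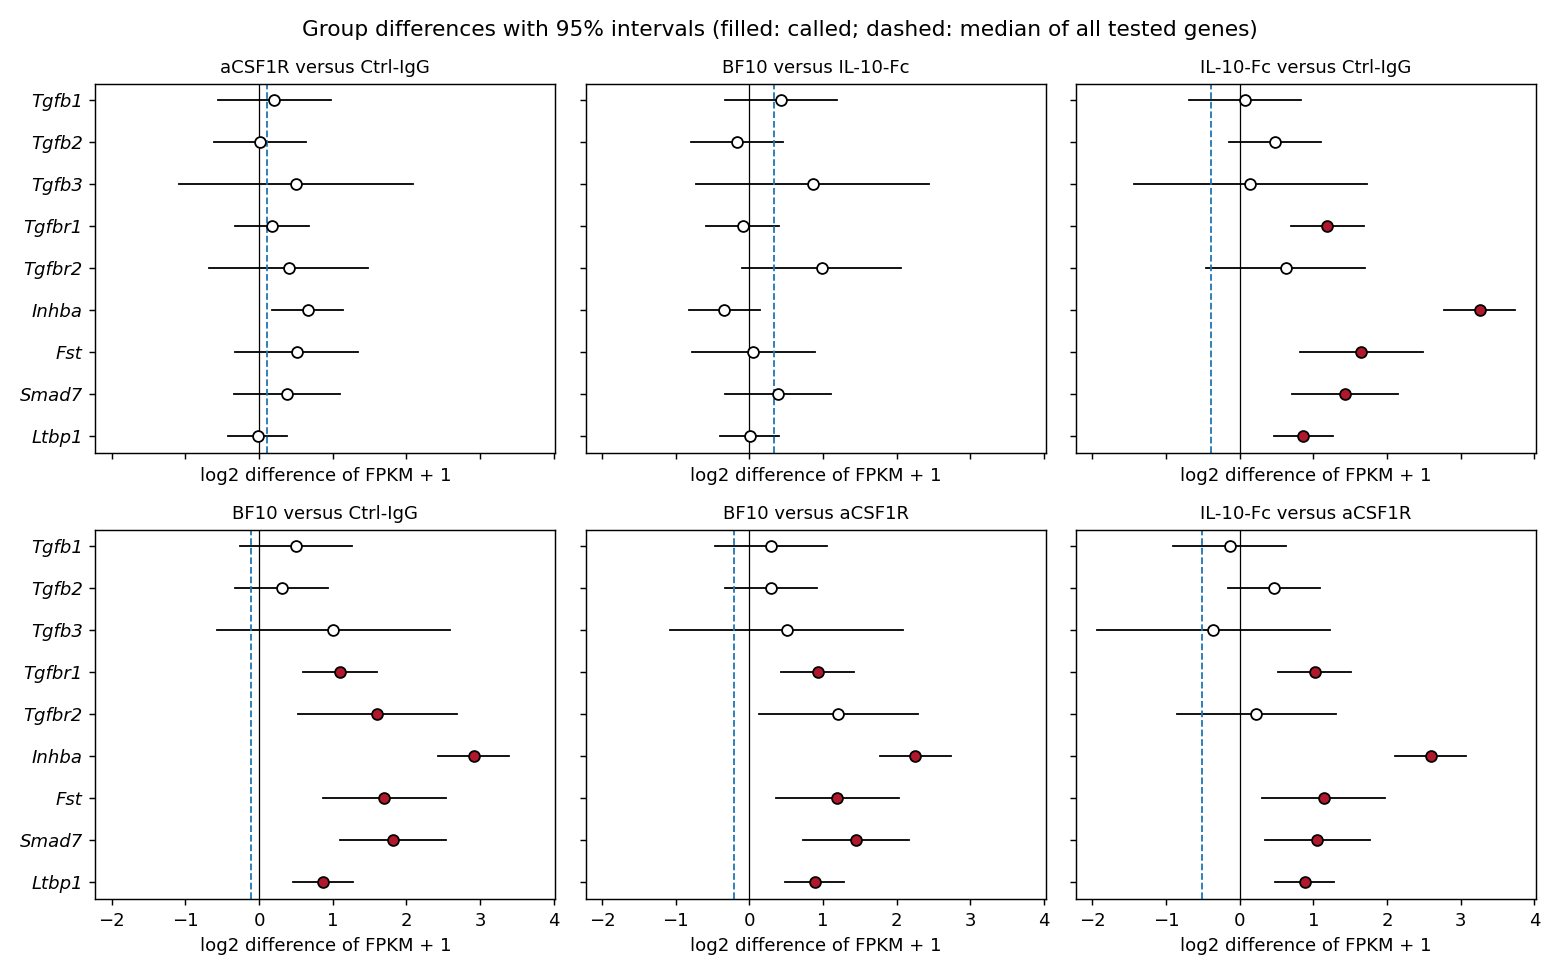
Log2 differences of FPKM + 1 for the 9 genes in the 6 pairs of groups, with 95% intervals from limma (n = 3 libraries per group). Filled points were called, open points were not, and the dashed line is the median of all 15813 tested genes. Inhba lies farthest to the right in the 4 comparisons between the sets, and no point is filled in aCSF1R versus Ctrl-IgG or BF10 versus IL-10-Fc.

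Among the ligands, Tgfb1, the isoform that immune and stromal cells mostly make, was the most abundant of the 9 transcripts in every library but IL-10-Fc replicate 2, where Ltbp1 was, and passed no test. It was 44.48, 26.84 and 46.93 FPKM in Ctrl-IgG, 41.57, 49.27 and 42.56 FPKM with aCSF1R, 50.08, 21.81 and 59.50 FPKM in IL-10-Fc, and 46.88, 58.81 and 58.96 FPKM in BF10. All 4 groups overlapped, and the lowest values were those of Ctrl-IgG replicate 2 and IL-10-Fc replicate 2, which had high FPKM sums. The log2 difference of BF10 from Ctrl-IgG was 0.50 (95% interval -0.27 to 1.27), so a difference in either direction lies within the interval. Tgfb2, the scarcest ligand, was 1.04 to 1.40 FPKM in Ctrl-IgG and aCSF1R, 1.5, 1.3 and 3.89 FPKM in IL-10-Fc, and 1.19, 2.31 and 1.71 FPKM in BF10. All 4 groups overlapped, IL-10-Fc replicate 3 stood alone at the top, and no comparison was called in the main fit. Median-of-ratios scaling called Tgfb2 higher in IL-10-Fc than in Ctrl-IgG (log2 difference 0.78) and aCSF1R (0.84). The FPKM sum as a covariate did so too (0.81 and 0.96).

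Tgfb3, an isoform associated with fibroblasts and matrix remodelling, varied widely inside every group but aCSF1R. It was 6.58, 2.09 and 8.95 FPKM in Ctrl-IgG, 7.62, 8.03 and 7.49 FPKM with aCSF1R, 3.05, 2.95 and 18.69 FPKM in IL-10-Fc, and 3.77, 19.93 and 17.90 FPKM in BF10. The 4 values of at most 3.77 FPKM were those of the 4 libraries with high FPKM sums, and the 3 values of at least 17.90 FPKM were the other IL-10-Fc and BF10 libraries. No comparison of Tgfb3 was called in the main fit, which has no covariate. With the log2 FPKM sum as a covariate and all libraries kept, Tgfb3 was called higher in all 4 comparisons between the sets. Its log2 difference from Ctrl-IgG was then 1.14 in IL-10-Fc and 0.86 in BF10, and that from aCSF1R was 1.13 and 0.85. The fit without the 4 high-sum libraries left IL-10-Fc replicate 3 alone in its group. There the log2 difference of Tgfb3 from Ctrl-IgG was 1.18 in IL-10-Fc and 1.20 in BF10. Against aCSF1R it was 1.19 in BF10, and in IL-10-Fc it turned from -0.36 to 1.18. Beyond the fits named here, the part of the library property in these levels was not tested.

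As a share of the summed FPKM of the 3 ligands, which does not depend on the scaling between libraries, Tgfb1 made up 72.5% to 91.7% and Tgfb2 2.04% to 4.99%. The share of Tgfb3 was 12.6%, 6.97% and 15.6% in Ctrl-IgG, 15.1%, 13.7% and 14.7% in aCSF1R, 5.58%, 11.3% and 22.8% with IL-10-Fc, and 7.27%, 24.6% and 22.8% in BF10. Those 3 IL-10-Fc and BF10 libraries with low FPKM sums had larger Tgfb3 shares than all 6 Ctrl-IgG and aCSF1R libraries, and the 3 with high sums had smaller ones than all but Ctrl-IgG replicate 2.

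**Figure D2:**
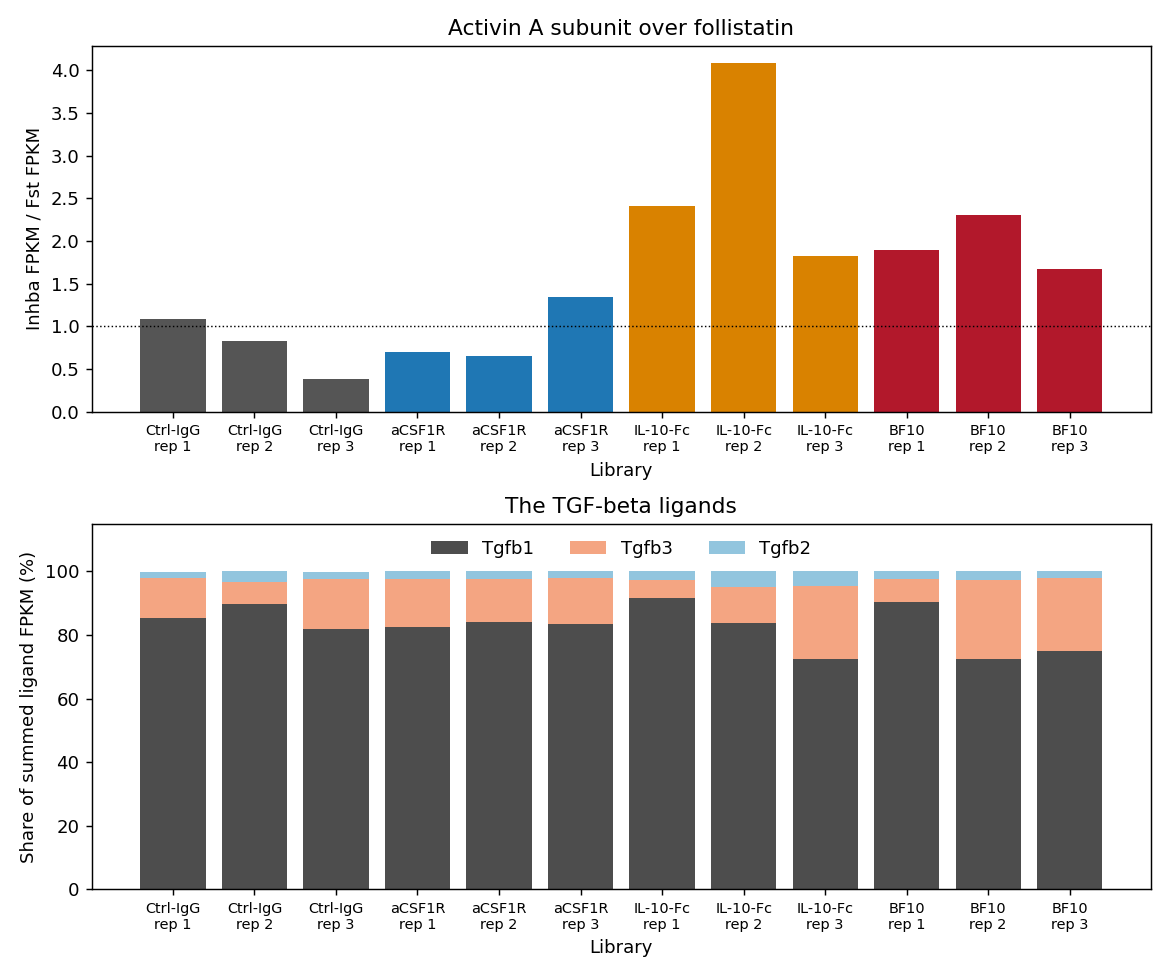
Top, the ratio of Inhba to Fst FPKM in each library, with a dotted line at 1. Bottom, the share of Tgfb1, Tgfb3 and Tgfb2 in their summed FPKM, in percent, for the same libraries. The Inhba to Fst ratio is at least 1.67 in each IL-10-Fc and BF10 library and at most 1.34 in each other one, whereas the Tgfb3 share is 5.58% to 11.3% in IL-10-Fc and BF10 libraries of high FPKM sum and 22.8% to 24.6% in the rest of them.

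The 2 TGF-beta receptors did not move alike. Tgfbr1, the type I receptor kinase that phosphorylates Smads, was 7.42, 11.72 and 8.04 FPKM in Ctrl-IgG and 8.89, 9.82 and 11.98 FPKM with aCSF1R. Its level reached 19.44, 24.93 and 20.75 FPKM in IL-10-Fc and 23.36, 19.72 and 17.83 FPKM in BF10. Every IL-10-Fc and BF10 library lay above every Ctrl-IgG and aCSF1R library, the high-sum libraries included. Tgfbr1 was 1.19 higher on the log2 scale in IL-10-Fc than in Ctrl-IgG (SE 0.23, limma adjusted p = 0.00249) and 1.10 higher in BF10 (SE 0.23, limma adjusted p = 0.00502). Against aCSF1R, BF10 was 0.92 higher (limma adjusted p = 0.0124) and IL-10-Fc 1.02 higher (limma adjusted p = 0.00542). Without aCSF1R replicate 1 the difference of BF10 from aCSF1R was 0.84 and no longer called (limma adjusted p = 0.0631), and without the 3 keratinocyte-rich libraries that of BF10 from Ctrl-IgG was 1.03 (limma adjusted p = 0.0671).

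Tgfbr2, the ligand-binding type II receptor, was 13.72, 7.52 and 18.40 FPKM in Ctrl-IgG, 15.28, 18.40 and 16.74 FPKM with aCSF1R, 14.87, 11.08 and 45.40 FPKM in IL-10-Fc, and 25.45, 55.05 and 45.37 FPKM in BF10. The 3 IL-10-Fc and BF10 libraries with low FPKM sums had 45.37 to 55.05 FPKM, and the 3 with high sums 11.08 to 25.45 FPKM, which put IL-10-Fc replicates 1 and 2 inside the range of the controls. BF10 lay above Ctrl-IgG by 1.61 on the log2 scale (SE 0.49, limma adjusted p = 0.0337). That call was lost without Ctrl-IgG replicate 1 (1.67, limma adjusted p = 0.0746), Ctrl-IgG replicate 2 (1.28, limma adjusted p = 0.114), BF10 replicate 2 (1.38, limma adjusted p = 0.125) or BF10 replicate 3 (1.52, limma adjusted p = 0.0932). It was also lost after TPM scaling (limma adjusted p = 0.0961), with all genes above 0 (0.0657) and without the keratinocyte-rich libraries (0.0837). Other alternatives added calls. With the FPKM sum as a covariate, Tgfbr2 was called higher in IL-10-Fc than in Ctrl-IgG (1.28) and aCSF1R (1.20). In BF10 against aCSF1R it was called with that covariate (1.43), median-of-ratios scaling (1.39) and the 2 groups alone (1.21). Median-of-ratios scaling also called it in IL-10-Fc against Ctrl-IgG (1.09). Without the 4 high-sum libraries, which left IL-10-Fc replicate 3 alone in its group, Tgfbr2 was 1.46 higher in IL-10-Fc than in Ctrl-IgG. The ratio of Tgfbr2 to Tgfbr1 FPKM was 0.444 to 1.09 in the 4 high-sum libraries and 1.40 to 2.79 in the other 8.

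**Figure D3:**
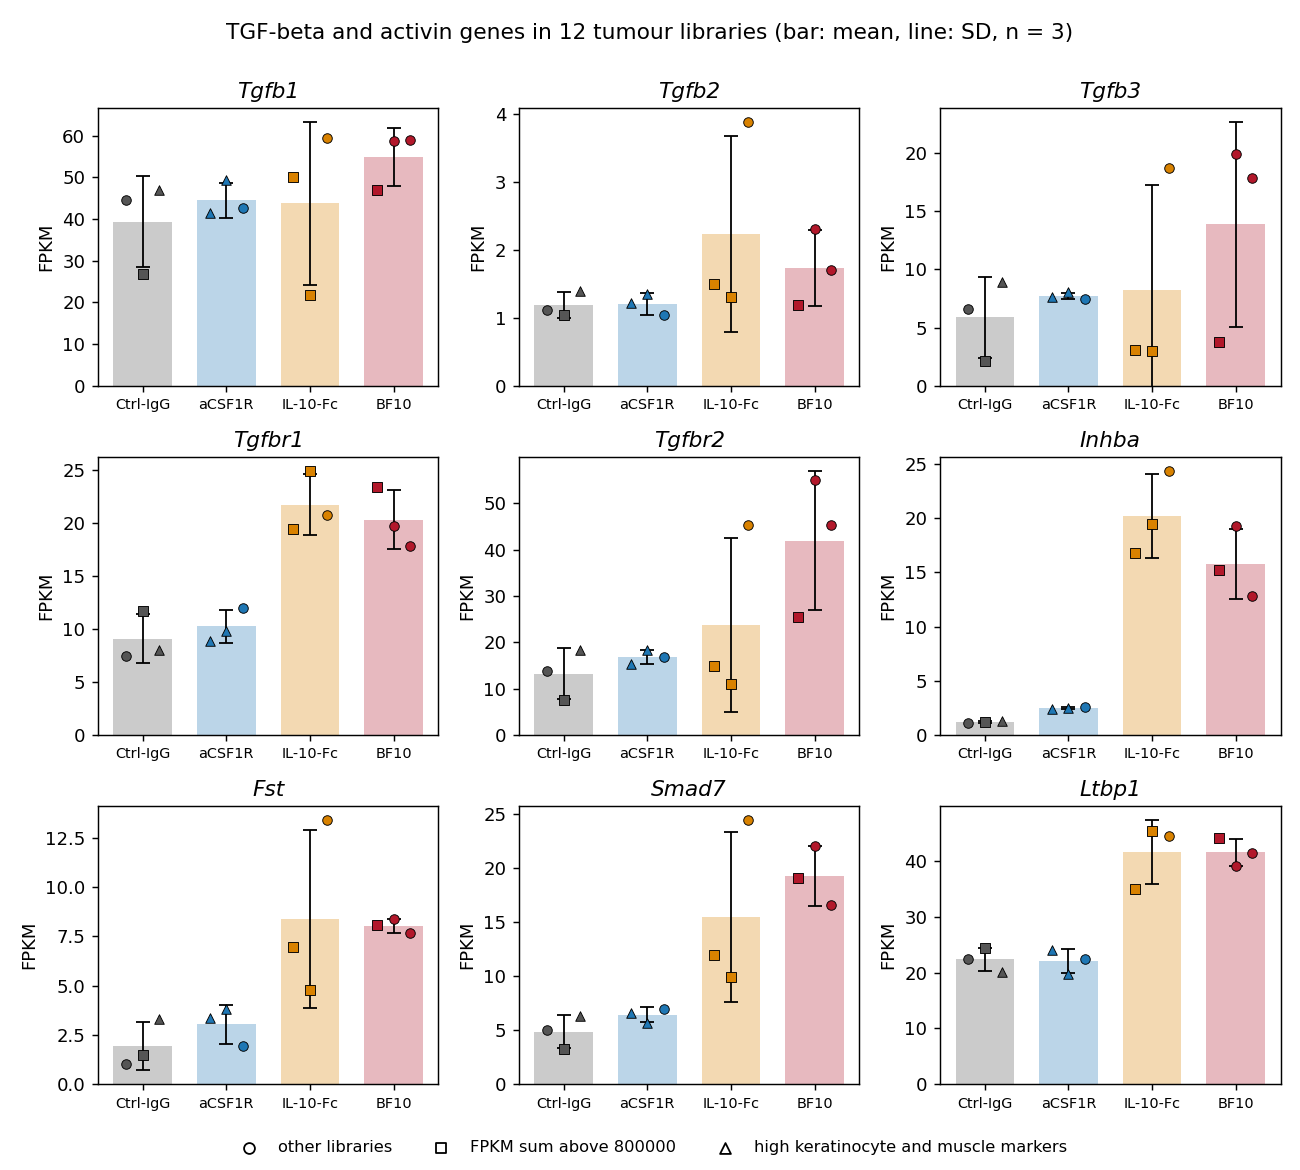
FPKM of the 9 genes in the 12 libraries, with the mean (bar) and SD (line, n = 3) of each group, SD lines ending at 0 where they would pass it. Squares are the 4 libraries with an FPKM sum above 800000 and triangles the 3 with high keratinocyte and muscle marker sums. Inhba, Tgfbr1, Ltbp1, Fst and Smad7 are higher in every IL-10-Fc and BF10 library than in every Ctrl-IgG and aCSF1R library, while Tgfb1, Tgfb2, Tgfb3 and Tgfbr2 overlap between the sets.

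Inhba, whose product forms activin A, showed the widest span of the 9 genes, 22.0-fold from the lowest to the highest library. It was 1.11, 1.20 and 1.28 FPKM in Ctrl-IgG, 2.36, 2.5 and 2.57 FPKM with aCSF1R, 16.77, 19.43 and 24.40 FPKM in IL-10-Fc, and 15.26, 19.28 and 12.79 FPKM in BF10. The groups formed 3 levels that did not overlap, with Ctrl-IgG lowest, aCSF1R next, and IL-10-Fc and BF10 together at the top with overlapping values. The mean was 1.20 ± 0.085 FPKM in Ctrl-IgG, 2.48 ± 0.107 FPKM in aCSF1R, 20.2 ± 3.87 FPKM in IL-10-Fc and 15.8 ± 3.28 FPKM in BF10 (SD, n = 3 each). High-sum and other libraries were mixed within the Ctrl-IgG level and within the top level, and aCSF1R held no high-sum library.

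Relative to Ctrl-IgG, Inhba was higher by 3.26 on the log2 scale in IL-10-Fc (SE 0.22, limma adjusted p = 7.29e-06) and by 2.92 in BF10 (SE 0.22, limma adjusted p = 1.33e-05), and the ratio of the mean FPKM was 16.9 and 13.2. Relative to aCSF1R it was higher by 2.59 in IL-10-Fc (limma adjusted p = 2.47e-05) and by 2.25 in BF10 (limma adjusted p = 7.26e-05). These 4 calls held under all 16 alternatives tried, with log2 differences from 2.11 to 3.95, the limma adjusted p reaching 0.0292 at most. The sums of simple epithelial and of fibroblast markers, and Xist and H2-Ea, separated the same libraries. The part of treatment in these 4 differences therefore cannot be told apart from that of the tissue.

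Within the Ctrl-IgG and aCSF1R set, where Xist and H2-Ea did not differ, Inhba was the only 1 of the 9 genes whose groups did not overlap. Its mean was 2.07 times as high in aCSF1R as in Ctrl-IgG, and each aCSF1R library exceeded each Ctrl-IgG library. Groups did not overlap, with aCSF1R higher, in 8.87% of all tested genes, so a count of 1 in 9 is near that background. The log2 difference of 0.66 (SE 0.22, 95% interval 0.18 to 1.14) did not pass correction (limma adjusted p = 0.959, unadjusted p = 0.0116 in limma), and the adjusted p was 0.26 to 1 over the 16 alternatives. Ctrl-IgG replicate 3, with 1739 FPKM of keratinocyte markers, had 1.28 FPKM of Inhba, and aCSF1R replicate 3, with 3.30 FPKM of them, had 2.57 FPKM. The macrophage marker sum was 404.1 to 756.6 FPKM in Ctrl-IgG and 236.2 to 263.8 FPKM in aCSF1R, so it was lower where Inhba was higher. Within the sum, C1qa, C1qb, C1qc and Adgre1 did not overlap between these groups, while Csf1r, Cd68 and Mrc1 did. The part of macrophage RNA in the Inhba difference was not tested.

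Each library carries a 2-number code in its title, whose meaning the labels do not give, and the first number is 1 to 4 in 7 libraries and 5 to 7 in the other 5. Among the former, Inhba was 1.11 and 1.20 FPKM in Ctrl-IgG, 2.36 and 2.5 FPKM with aCSF1R, 16.77 and 19.43 FPKM in IL-10-Fc and 15.26 FPKM in BF10. Among the latter, it was 1.28 FPKM in Ctrl-IgG, 2.57 FPKM with aCSF1R, 24.40 FPKM in IL-10-Fc and 19.28 and 12.79 FPKM in BF10. The 3 levels were therefore present in both, whereas the Tgfb3 values of at least 17.90 FPKM all came from codes of 6 and 7. A term for this split, chosen after seeing the data, left the counts of called genes at 5, 6, 5 and 5 in the 4 comparisons between the sets.

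Fst, the secreted antagonist of activin, was 1.02, 1.46 and 3.31 FPKM in Ctrl-IgG, 3.37, 3.83 and 1.92 FPKM with aCSF1R, 6.96, 4.76 and 13.44 FPKM in IL-10-Fc, and 8.08, 8.38 and 7.66 FPKM in BF10. Every IL-10-Fc and BF10 library lay above every other library, the closest being IL-10-Fc replicate 2 and aCSF1R replicate 2. Within the Ctrl-IgG and aCSF1R set, the 3 values of at least 3.31 FPKM were those of the 3 libraries with keratinocyte and muscle transcripts, and the other 3 were 1.02 to 1.92 FPKM. The part of keratinocyte and muscle RNA in those values was not tested. Fst was higher by 1.65 in IL-10-Fc (SE 0.38, limma adjusted p = 0.00688) and by 1.70 in BF10 (SE 0.38, limma adjusted p = 0.00739) than in Ctrl-IgG on the log2 scale. Against aCSF1R it was higher by 1.14 in IL-10-Fc (limma adjusted p = 0.0326) and by 1.19 in BF10 (limma adjusted p = 0.0398). The latter call was lost when any 1 of the 3 aCSF1R or 3 BF10 libraries was left out (log2 difference 0.98 to 1.34, limma adjusted p 0.0632 to 0.142). The former was lost without any 1 aCSF1R library or without IL-10-Fc replicate 1 or 3 (0.78 to 1.29, limma adjusted p 0.0515 to 0.112).

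Since Inhba differed more than Fst, the ratio of Inhba to Fst FPKM was also higher between the sets. It was 1.09, 0.822 and 0.387 in Ctrl-IgG, 0.700, 0.653 and 1.34 in aCSF1R, 2.41, 4.08 and 1.82 with IL-10-Fc, and 1.89, 2.30 and 1.67 in BF10. All 6 IL-10-Fc and BF10 libraries lay above all 6 others, and Ctrl-IgG and aCSF1R overlapped. The ratio was given as a description, without a test.

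**Figure D4:**
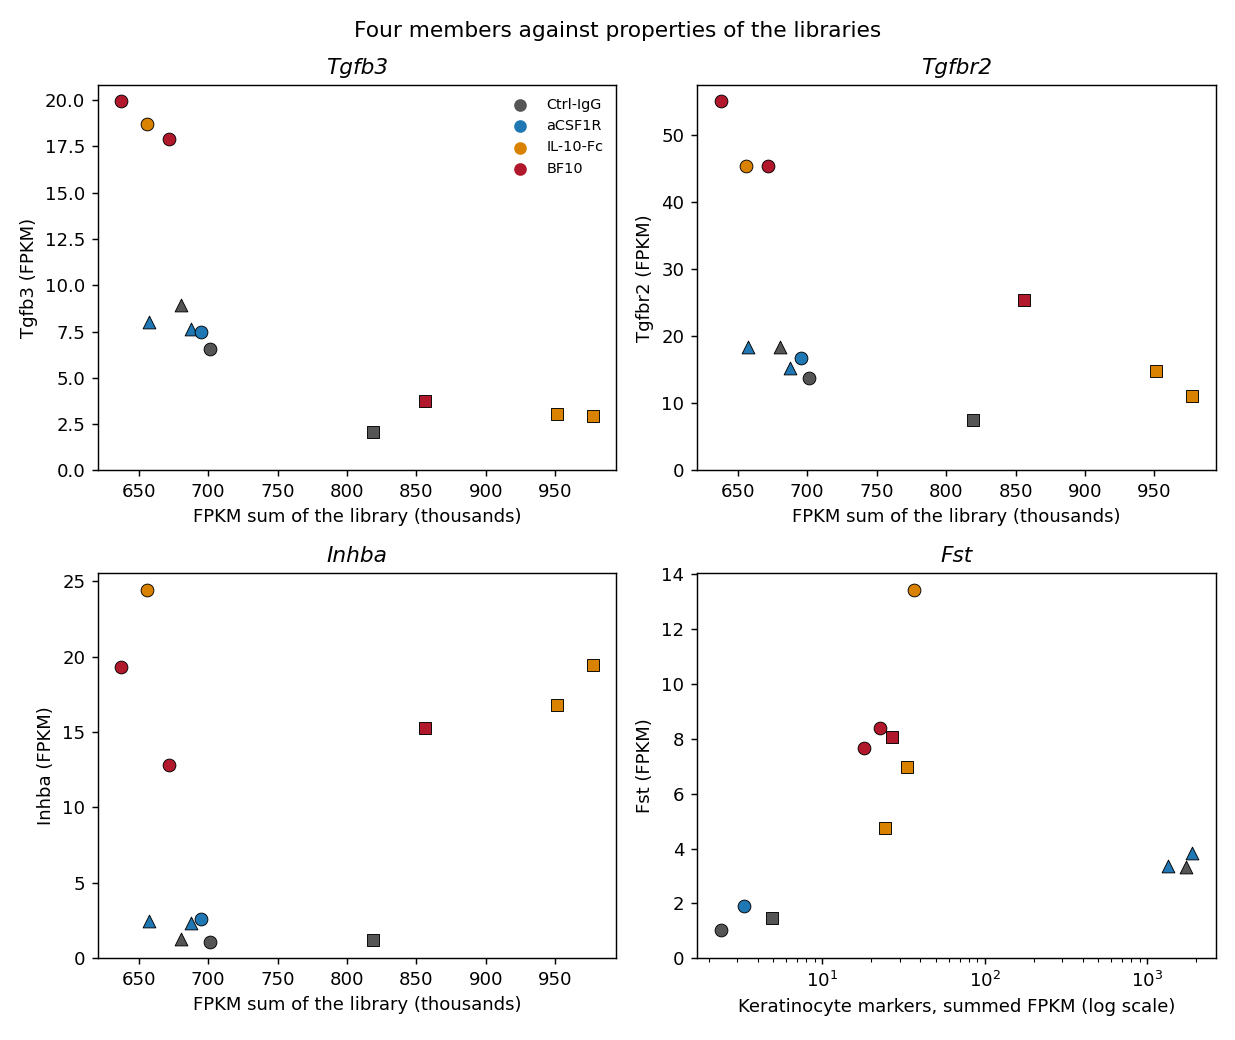
FPKM of Tgfb3, Tgfbr2 and Inhba against the FPKM sum of the library (in units of 1000) and of Fst against the summed FPKM of 7 keratinocyte markers on a log axis, each point 1 of 12 libraries coloured by group, squares being libraries with a sum above 800000 and triangles those with high keratinocyte and muscle marker sums. Tgfb3 is at most 3.77 FPKM in the 4 high-sum libraries, Inhba is 12.79 to 24.40 FPKM in IL-10-Fc and BF10 at any sum, and Fst is 3.31 to 3.83 FPKM in the 3 triangles against 1.02 to 1.92 FPKM in the other Ctrl-IgG and aCSF1R libraries.

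Ltbp1, which stores latent TGF-beta in the matrix, was the least variable of the 9 genes, with a 2.29-fold span over the 12 libraries. It was 22.48, 24.46 and 20.20 FPKM in Ctrl-IgG, 24.08, 19.81 and 22.41 FPKM with aCSF1R, 35, 45.45 and 44.63 FPKM in IL-10-Fc, and 44.12, 39.14 and 41.57 FPKM in BF10. The sets did not overlap, and the values inside each set were close. Ltbp1 was higher by 0.86 in IL-10-Fc (SE 0.18, limma adjusted p = 0.00439) and by 0.87 in BF10 (SE 0.18, limma adjusted p = 0.0055) than in Ctrl-IgG, and the ratio of the mean FPKM was 1.86 in both. Without the 3 keratinocyte-rich libraries these differences were 0.79 and 0.80 and were not called (limma adjusted p = 0.0774 and 0.0841). Its within-set differences were near 0, at -0.02 (95% interval -0.42 to 0.38) for aCSF1R against Ctrl-IgG and 0.01 (-0.40 to 0.41) for BF10 against IL-10-Fc, both in log2 units.

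Smad7, the inhibitory Smad, was 4.98, 3.21 and 6.29 FPKM in Ctrl-IgG, 6.58, 5.64 and 6.97 FPKM with aCSF1R, 11.96, 9.91 and 24.44 FPKM in IL-10-Fc, and 19.08, 22.02 and 16.52 FPKM in BF10. The sets did not overlap, and IL-10-Fc replicates 1 and 2, both high-sum libraries, lay below all 3 BF10 libraries while IL-10-Fc replicate 3 lay above them. Smad7 was higher by 1.43 in IL-10-Fc (SE 0.33, limma adjusted p = 0.00657) and by 1.82 in BF10 (SE 0.33, limma adjusted p = 0.0023) than in Ctrl-IgG. Against aCSF1R it was higher by 1.05 in IL-10-Fc (limma adjusted p = 0.0246) and by 1.45 in BF10 (limma adjusted p = 0.00801). The IL-10-Fc difference from aCSF1R was not called without aCSF1R replicate 1 (1.07, limma adjusted p = 0.0633), replicate 2 (0.98, limma adjusted p = 0.0808) or replicate 3 (1.11, limma adjusted p = 0.0511).

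The comparisons inside a set ask what the CSF1R antibody adds, alone or as a part of the fusion. None of the 9 genes was called in aCSF1R against Ctrl-IgG, where 0.00% of all tested genes were called (0 of 15813, with 437 at an unadjusted p under 0.05, 1 of them Inhba). None was called in BF10 against IL-10-Fc either, where 0.0126% of all genes were (2 of 15813, with 828 at an unadjusted p under 0.05 and none of the 9 among them). In that comparison all 9 genes overlapped between the groups, where 4.67% of all tested genes lay higher in every BF10 library than in every IL-10-Fc library. The largest difference was that of Tgfbr2, 0.98 higher in BF10 (95% interval -0.09 to 2.06), against a median of 0.34 over all genes. Over the 16 alternatives it was 0.14 to 1.56. Replicates 1 and 2 of IL-10-Fc but only replicate 1 of BF10 are high-sum libraries, and these held the lowest Tgfbr2 values of their groups. The part of that imbalance was not tested. Inhba was 0.34 lower (-0.82 to 0.14), an interval that includes no difference.

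Departure from additivity was computed on the log2 scale as the difference of BF10 from IL-10-Fc less that of aCSF1R from Ctrl-IgG, and uses all 12 libraries. Each difference lies within a set, and the sets differ in Xist, H2-Ea and simple epithelial markers. A departure therefore cannot be told apart from a difference between the sets. It was called for none of the 9 genes and for 0.00632% of all tested genes (1 of 15813, with 412 at an unadjusted p under 0.05). Inhba had the largest value, -1.0 (SE 0.31, 95% interval -1.68 to -0.32, unadjusted p = 0.00795 in limma), which did not pass correction (limma adjusted p = 1.00). Its adjusted p was 0.279 to 1 over the alternatives. The other 8 values lay between -0.46 for Fst and 0.58 for Tgfbr2, each with an interval that included 0.

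For each called gene, the tested genes of at least 5 FPKM on average with the most similar profile over the 12 libraries were found by the root mean square difference of centred log2(FPKM + 1) values. Tgfbr2 was closest to Ski, a corepressor of Smad proteins, at 0.148 log2 units, followed by Pip4k2b and Smg6, where the median over all genes was 0.952. Inhba was closest to the mitochondrial carbonic anhydrase gene Car5b at 0.289, Enpp5 at 0.294 and Mir100hg at 0.316, where the median was 1.655. Fst was closest to Ccn4, a matricellular gene, at 0.218, then Nrep and Prss23. Tgfbr1 was closest to Ttc3, Etv1 and Ift80 at 0.138 to 0.145, Smad7 to Rbm15b, St3gal4 and Klhl22 at 0.133 to 0.168, and Ltbp1 to Gorab, Pter and Rbbp7 at 0.104 to 0.122. A profile over 12 libraries that fall into 2 sets is close for many genes, and nothing about shared control was drawn from it.

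The rest of the pathway was described with 61 further genes in 7 groups, of which 52 passed the expression filter, and the Fbn2, Itgb6, Itgb8, Inhbc, Inhbe, Mstn, Nodal, Lefty2 and Acvr1c transcripts did not. None of the 52 was called in aCSF1R against Ctrl-IgG or in BF10 against IL-10-Fc. In IL-10-Fc against Ctrl-IgG 16 were called higher and 7 lower, with a median log2 difference of 0.40 against -0.39 over all genes, of which 10.1% were called higher and 23.6% lower. In BF10 against Ctrl-IgG 14 were called higher and 3 lower, with a median of 0.60 against -0.12 over all genes, of which 11.8% were called higher and 13.2% lower. Against aCSF1R, 10 were called higher and 4 lower in BF10, and 10 higher and 10 lower in IL-10-Fc, where the shares of all genes were 11.0% higher and 14.0% lower for BF10 and 11.0% higher and 31.2% lower for IL-10-Fc. These differences lie between the sets of libraries and carry the same limit as those of the 9 genes.

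In the latent complex, storage and activation group, 4 of 11 tested genes were called higher and 1 lower in IL-10-Fc against Ctrl-IgG (all genes, 10.1% and 23.6%), and 3 higher and none lower in BF10 (all genes, 11.8% and 13.2%). Ltbp2, a matrix protein of the Ltbp1 family, was 0.50, 1.00 and 11.30 FPKM in Ctrl-IgG and 24.63, 64.44 and 56.77 FPKM in BF10, a log2 difference of 3.79 (SE 0.86, limma adjusted p = 0.00799). Its value in Ctrl-IgG replicate 3, a keratinocyte-rich library, was far above the other 2. Against aCSF1R, Ltbp2 was not called in BF10 (limma adjusted p = 0.0889) or IL-10-Fc (limma adjusted p = 0.178). Ltbp3, another latent TGF-beta binding protein, was higher than in Ctrl-IgG by 2.79 in BF10 (limma adjusted p = 0.000755) and by 2.11 in IL-10-Fc (limma adjusted p = 0.00284). Bmp1, a protease that releases latent complexes, was higher by 2.22 in BF10 and 1.60 in IL-10-Fc, while the microfibril gene Fbn1 was lower by 0.94 in IL-10-Fc. The Itgb6 and Itgb8 subunits, which pair with Itgav to activate TGF-beta, were at most 0.47 FPKM in every library.

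Among activin relatives, Inhbb, the subunit of activin B, was higher and Inha, the inhibin alpha subunit, was lower in IL-10-Fc and BF10. Inhbb was 1.51, 0.52 and 2.35 FPKM in Ctrl-IgG and 6.16, 10.01 and 10.15 FPKM in BF10, a log2 difference of 2.03 (SE 0.40, limma adjusted p = 0.00406). Inha was 8.06, 1.70 and 8.59 FPKM in Ctrl-IgG and 10.25, 16.26 and 7.06 FPKM with aCSF1R, against 0.13, 0.18 and 0.90 FPKM in IL-10-Fc and 0.26, 0.42 and 2.34 FPKM in BF10. The highest BF10 value was in replicate 3, the library with Y-linked transcripts, and the lowest control value in the high-sum replicate 2 of Ctrl-IgG. Inha was lower by 2.18 in IL-10-Fc (limma adjusted p = 0.0101) and by 1.76 in BF10 (limma adjusted p = 0.0338) than in Ctrl-IgG, and Lefty1, a Nodal antagonist of the same ligand family, was lower by 1.05 in IL-10-Fc. The beta A and beta B subunits and the alpha subunit thus differed in opposite directions. The activin receptor group held 5 tested genes, namely Acvr1, Acvr1b, Acvr2a, Acvr2b and the pseudoreceptor Bambi. None of these was called in any of the 6 pairs of groups, and their median was -0.19 in IL-10-Fc and 0.04 in BF10 against Ctrl-IgG. The co-receptor Eng was called higher in BF10 against Ctrl-IgG (2.18, limma adjusted p = 0.0253), and Tgfbr3, which presents TGF-beta to the receptors, was called lower in BF10 (-1.37, limma adjusted p = 0.0115) and IL-10-Fc (-1.46, limma adjusted p = 0.00608) against aCSF1R.

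**Figure D5:**
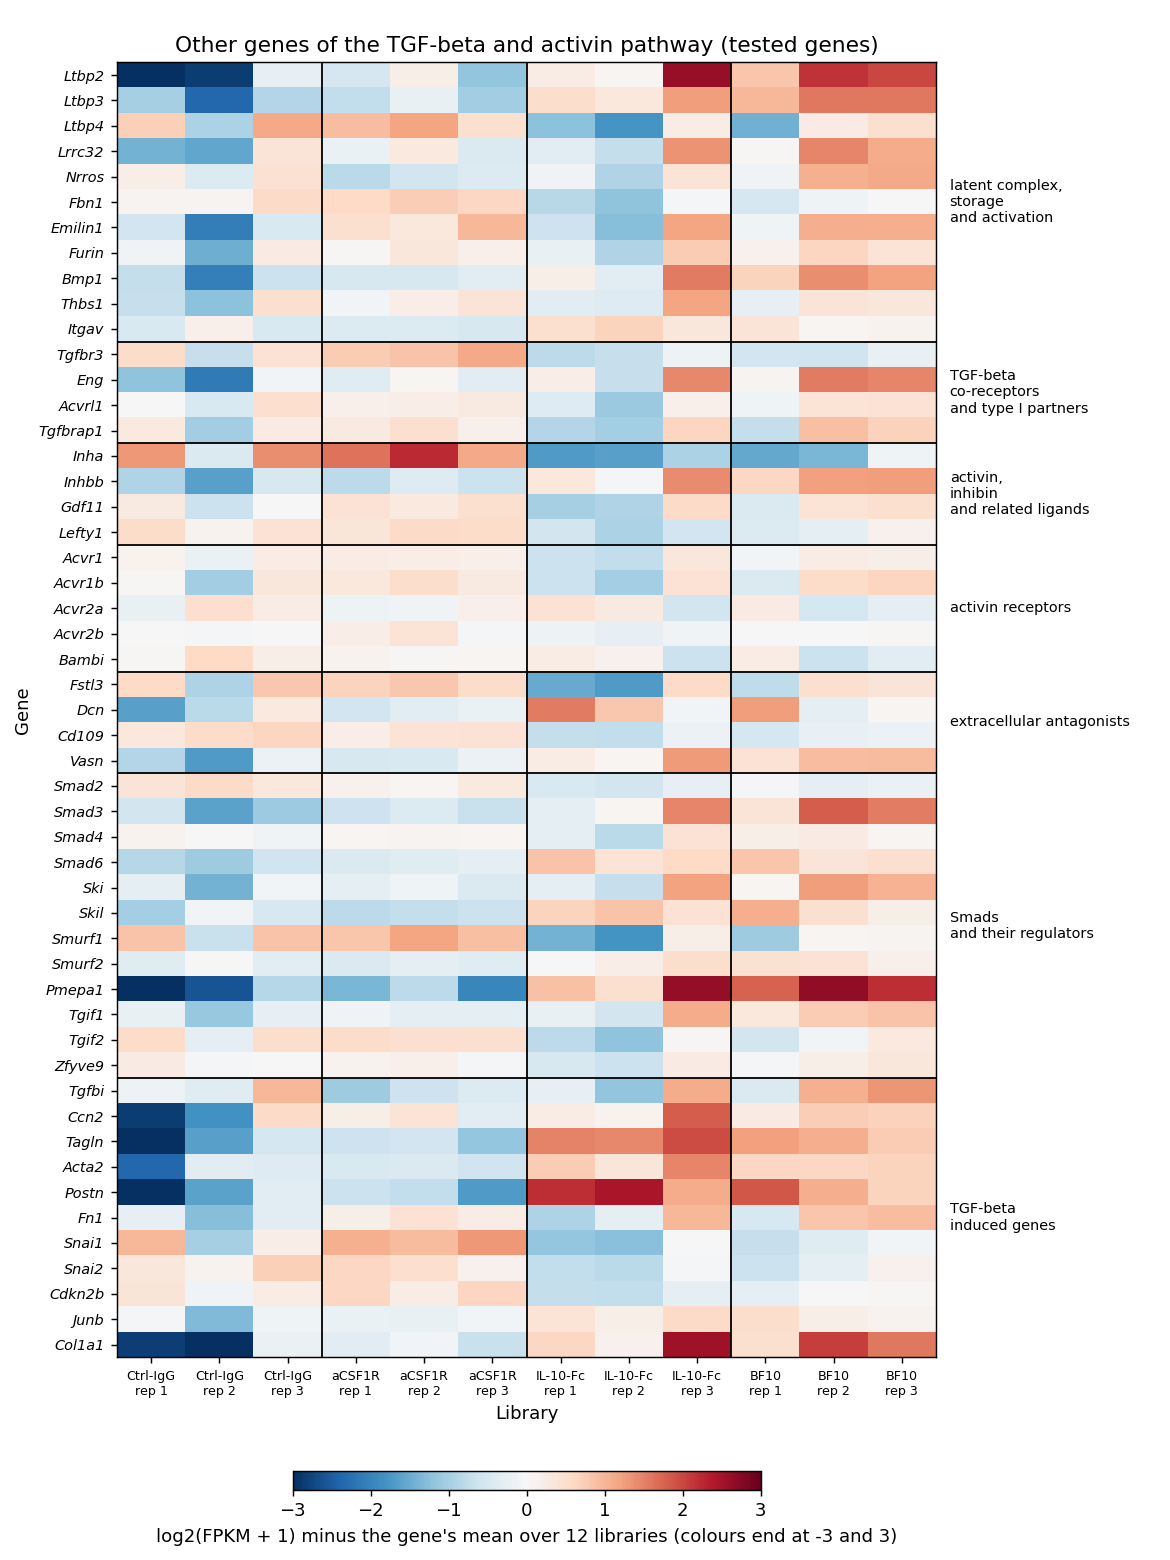
Log2(FPKM + 1) of the tested pathway genes (all but 1 of 52) minus each gene's mean over the 12 libraries, in 7 groups of genes (rows) and 12 libraries (columns), red being above and blue below the mean and colours ending at -3 and 3. Pmepa1, Ltbp2, Ltbp3 and Inhbb are redder in IL-10-Fc and BF10 libraries and Inha is bluer.

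In the Smad group, 4 of 12 genes were called higher and 1 lower in both IL-10-Fc and BF10 against Ctrl-IgG, where 10.1% and 11.8% of all genes were called higher and 23.6% and 13.2% lower. Pmepa1, a TGF-beta induced inhibitor of the pathway, had the largest difference of all 52 genes in BF10 against Ctrl-IgG. It was 0.60, 1.29 and 6.64 FPKM in Ctrl-IgG, 4.36, 7.01 and 2.53 FPKM with aCSF1R, 24.37, 18.14 and 83.95 FPKM in IL-10-Fc, and 45.89, 85.68 and 63.35 FPKM in BF10. The sets did not overlap, and inside the lower set the 3 keratinocyte-rich libraries held the 3 highest values. The log2 difference from Ctrl-IgG was 4.40 in BF10 (SE 0.65, limma adjusted p = 0.000784) and 3.51 in IL-10-Fc (SE 0.65, limma adjusted p = 0.0022). The signal transducer Smad3 was higher by 2.32 in BF10 (limma adjusted p = 0.00551) and by 1.49 in IL-10-Fc (limma adjusted p = 0.036), while Smad2, its close relative, was lower by 0.61 (limma adjusted p = 0.03) and 0.85 (limma adjusted p = 0.00459). The inhibitory Smad6 and the corepressor Skil were higher in IL-10-Fc, by 1.47 and 1.18, and in BF10, by 1.42 and 1.11. Smad4 passed no test.

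Of 12 genes known to be induced by TGF-beta, 6 were called higher and 2 lower in IL-10-Fc against Ctrl-IgG, and 4 higher and none lower in BF10 against Ctrl-IgG. Of all genes, 10.1% were called higher and 23.6% lower in the former and 11.8% and 13.2% in the latter, so the share of induced genes called lower was not above that of all genes. The matrix gene Postn was higher by 4.02 in IL-10-Fc (SE 0.83, limma adjusted p = 0.00394) and 3.30 in BF10 (limma adjusted p = 0.0138), and the contractile gene Tagln by 3.50 (limma adjusted p = 0.00101) and 2.91 (limma adjusted p = 0.00384). The matricellular gene Ccn2 was higher by 2.07 in IL-10-Fc. The collagen gene Col1a1 was higher by 3.20 in IL-10-Fc and 3.50 in BF10, and the smooth muscle actin gene Acta2 by 1.88 and 1.65. Col1a1 is also 1 of the 8 fibroblast markers, whose sum separated the sets. The 2 lower genes, named after their values were seen, were Snai2, a transcription factor of epithelial to mesenchymal transition, lower by 0.93, and the cell cycle inhibitor Cdkn2b, lower by 0.75. Tgfbi and Fn1, also named after their values were seen, passed no test in any pair of groups. Against aCSF1R, fewer of the 12 induced genes were called higher. The calls were 1 higher and 1 lower in BF10, and 3 higher and 3 lower in IL-10-Fc. Of all genes, 11.0% were called higher and 14.0% lower in BF10, and 11.0% and 31.2% in IL-10-Fc. Among extracellular antagonists, Vasn was higher by 1.43 in IL-10-Fc and 1.69 in BF10 than in Ctrl-IgG. The co-receptor antagonist Cd109 was lower by 1.04 and 0.80. Against aCSF1R, Vasn was not called in BF10 (limma adjusted p = 0.0661) or IL-10-Fc (limma adjusted p = 0.099). Fstl3, a relative of follistatin, was 3.08 to 6.83 FPKM in the 3 high-sum IL-10-Fc and BF10 libraries and 16.22 to 18.68 FPKM in the other 3, and passed no test.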

How the data were processed

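Bulk RNA from 12 mouse tumours, in 4 groups of 3 set by the labels, was sequenced from stranded mRNA libraries. The values used are FPKM that the authors deposited for 55401 genes. The submitters' processing notes name STAR 2.7.5a, RSEM 1.3.3, DESeq2 1.30.0 and the GRCm38 (mm10) build, and the deposited tables of fold changes and p-values were not used. Counts were not used here, and the depth behind a single FPKM value is unknown. Relative depth, estimated from the spacing of low values, was 0.94 to 1.40 with Ctrl-IgG replicate 1 as 1.

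Genes that reached 1 FPKM in 3 or more libraries were tested on log2(FPKM + 1), which understates the change of low genes, with limma 3.58.1 (R 4.3.3, empirical Bayes with a trend, all 12 libraries in 1 fit), after a test of the script on simulated data. A call needed a Benjamini-Hochberg adjusted p under 0.05 over all genes and a fold of 1.5. No pair of libraries was identical. Figures used Python 3.11.15, pandas 2.3.3 and matplotlib 3.10.9.

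All 9 genes were named. Of the pathway groups, up to 4 called genes per comparison with the largest difference were named, and any by level. For each called gene the 3 most alike genes were named, leaving out predicted genes. The values of 1 pathway gene are not reported here. The 9 genes and all lists were chosen with earlier results of these data known. Alternatives were a pseudocount of 0.1, other filters, median-of-ratios and TPM scaling, the FPKM sum as a covariate, the 2 groups alone, and fits without the high-sum libraries or each library in turn. A fit without the 3 keratinocyte-rich libraries and one with a term for a first title number of 5 to 7 were chosen after seeing the data.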

Additional observations from a re-analysis of the deposited data

How the results depend on the processing

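No paired analysis was possible because the replicate numbers only name the libraries in accession order, the 12 title codes are all distinct, and no group shares more than 1 first title number with another. Inhba was called in 16 of 16 alternatives in each of the 4 comparisons between the sets, and no alternative called any of the 9 genes within a set (aCSF1R with Ctrl-IgG, or BF10 with IL-10-Fc) or in the departure from additivity. The count of called genes in IL-10-Fc against Ctrl-IgG was 5 with all libraries. It was 3 after TPM scaling, 8 with the FPKM sum as a covariate and 2 with the 2 groups alone. In IL-10-Fc against aCSF1R, 5 became 2, 8 and 3 under the same settings. The fit without the high-sum libraries left IL-10-Fc replicate 3 alone in its group. That without the keratinocyte-rich libraries, a setting chosen after seeing the data, left aCSF1R replicate 3 alone. Leaving out 1 library at a time gave 5 in IL-10-Fc against Ctrl-IgG, 5 to 6 in BF10 against Ctrl-IgG, 3 to 4 in BF10 against aCSF1R and 3 to 5 in IL-10-Fc against aCSF1R. Tgfb3 in IL-10-Fc against aCSF1R turned from -0.36 to 1.13 with the covariate and to 1.18 without the high-sum libraries. The cause was not tested, except that fits without libraries hold fewer samples. Median-of-ratios scaling moved the median of all genes in IL-10-Fc against Ctrl-IgG from -0.39 to 0.01. Of the single-gene values under all alternatives, 900 kept direction and call, 56 changed sign by no more than 1 SE and were never called, 48 lost and 21 gained a call, 19 uncalled values changed sign by more than that and 2 reversed to a call.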
